A study of Mus musculus with 6 samples.

Results

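The 9 genes described here are 8 genes associated with the 2-cell stage of the mouse embryo, Zscan4c, Zscan4d, Zscan4f, Zfp352, Tcstv1, Tcstv3, Tdpoz1 and Eif1a, together with the oocyte homeobox gene Obox6. They were taken by symbol from the 24043 gene rows of the deposited table, and all 9 symbols were found. The genes were listed by name and selected on measured values, the FPKM (fragments per kilobase of gene in each 1e6 fragments) of these same libraries. Their difference between the genotypes is therefore given as a description, with no test. The study sequenced RNA from mouse embryonic stem (ES) cells, pluripotent cells derived from the early embryo, in 3 wild-type libraries and 3 libraries labelled Q-KO, a genotype described as lacking every G1 cyclin. The medium of all 6 libraries was Knockout DMEM with LIF, a cytokine that keeps ES cells pluripotent, and with PD184352 against MEK and CHIR99021 against GSK3. The sources used here do not give the strain, the clones or how the alleles were removed, nor whether a group's 3 libraries came from separate cultures. P-values therefore measure only the spread between these libraries. That spread may be partly technical, and in the wild-type group it includes a difference in Y-linked genes that is given below.

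When the mouse embryo first switches on its own genes, at the 2-cell stage, a burst of transcripts appears that comes mostly from recently duplicated gene families. In ES cell cultures the same families are known to be active in a small and changing subset of cells, in which the transcription factor DUX switches on the Zscan4 genes and their companions before the cells return to the usual pluripotent state. Zscan4 proteins carry a SCAN domain and zinc fingers and are known for a role in telomere maintenance. The Obox genes are a family of homeobox genes of the oocyte and early embryo that lie beside Crx.

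The Zscan4 genes are tandem copies on chromosome 7, and their promoters show how close the copies are. The 250 bases before the start site of the 3 Zscan4 members are printed here from the RefSeq table of build GRCm38.p6, because the results turn on copies that cannot be fully separated. Capitals mark TATAAA, the letters of a TATA box.
Zscan4c (chr7:11005495-11005744, plus strand): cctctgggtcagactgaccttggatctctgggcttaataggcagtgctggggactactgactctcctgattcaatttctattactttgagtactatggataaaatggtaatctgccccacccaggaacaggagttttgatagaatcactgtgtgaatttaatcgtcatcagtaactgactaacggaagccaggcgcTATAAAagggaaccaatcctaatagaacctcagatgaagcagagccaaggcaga
Zscan4d (chr7:11166149-11166398, minus strand): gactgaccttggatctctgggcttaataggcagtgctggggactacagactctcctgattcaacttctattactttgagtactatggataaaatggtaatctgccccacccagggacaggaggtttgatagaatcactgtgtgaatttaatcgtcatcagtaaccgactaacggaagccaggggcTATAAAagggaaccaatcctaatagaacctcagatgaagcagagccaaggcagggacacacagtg
Zscan4f (chr7:11397665-11397914, plus strand): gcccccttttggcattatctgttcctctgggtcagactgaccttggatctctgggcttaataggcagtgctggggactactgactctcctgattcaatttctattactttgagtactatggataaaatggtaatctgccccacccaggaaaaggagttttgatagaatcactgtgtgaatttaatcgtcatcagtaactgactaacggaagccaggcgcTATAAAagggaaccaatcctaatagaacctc
Zscan4c and Zscan4f differed at 1 of 227 aligned bases (99.6% identity), Zscan4c and Zscan4d at 7 of 239 (97.1%) and Zscan4d and Zscan4f at 7 of 216 (96.8%), with no inner gap. All 3 hold TATAAA once, beginning 54, 65 and 31 bases before the start sites of Zscan4c, Zscan4d and Zscan4f. Searched on both strands, TATAAA is found in 12.4% of the 32851 windows of the same length in that table. The window of the zinc finger gene Zfp352 holds no TATAAA. It holds TAATCC, the letters preferred by homeodomains of the CRX class, 9 times at near-regular spacing. These are shown in capitals because no other window held so many. The 9 matches lie in near-identical copies of the same short stretch, a tandem repeat, so they are not independent occurrences.
Zfp352 (chr4:90218570-90218819, plus strand): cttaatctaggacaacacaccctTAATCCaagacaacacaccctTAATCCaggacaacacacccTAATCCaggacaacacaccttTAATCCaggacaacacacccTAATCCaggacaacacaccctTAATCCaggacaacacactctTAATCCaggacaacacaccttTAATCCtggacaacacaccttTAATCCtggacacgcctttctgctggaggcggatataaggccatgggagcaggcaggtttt
TAATCC on either strand is found in 6.3% of all windows, and 1 window, that of Zfp352, holds it 8 times or more. This motif and the count of 8 were chosen after the sequences had been read, and a match of letters is no evidence that a factor binds. TAATCC occurred 1 time in the window of Tdpoz1 and 0 times in those of the 3 Zscan4 members, and these 5 are the members found in the promoter table.

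The wild-type group was not uniform. The 4 Y-linked genes examined were listed at 0 in wild-type replicates 1 and 2 and were above 0 in the remaining 4 libraries. This difference runs partly along the genotype contrast, and its part in the differences between the groups was not tested. Of the G1 cyclins, Ccnd1, Ccnd3 and Ccne2 were lower in each Q-KO library than in any wild-type library. Ccne1 was higher, at 65.3 to 87.3 FPKM against 37.5 to 55.9. Ccnd2, low throughout, was at 0.299 to 0.548 FPKM against 0.064 to 0.310 FPKM and was not lower either, so that directions below are those of the libraries labelled Q-KO. The FPKM of a gene does not show whether part of the gene or its protein is missing. The FPKM of a library summed to 525134 to 641715. Fragment numbers were not used here, and steps among the low values gave depths of 1.10 to 1.22 relative to wild-type replicate 1. All 10 ES cell markers had means of 1 FPKM or more, with Dppa5a, Tdgf1 and Pou5f1, the gene of Oct4, the most abundant (Pou5f1 at 589 to 797 FPKM). Of these 10, 0 passed limma's test and 0 had an unadjusted p under 0.05. Of 10 fibroblast genes, 9 were highest in Q-KO replicate 1, in which the list without Thy1 summed to 6.21 FPKM against 0.446 to 1.08 in the other libraries. Thy1 was the fibroblast gene that could be tested, and it did not pass (limma adjusted p = 0.196).

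**Figure D1:**
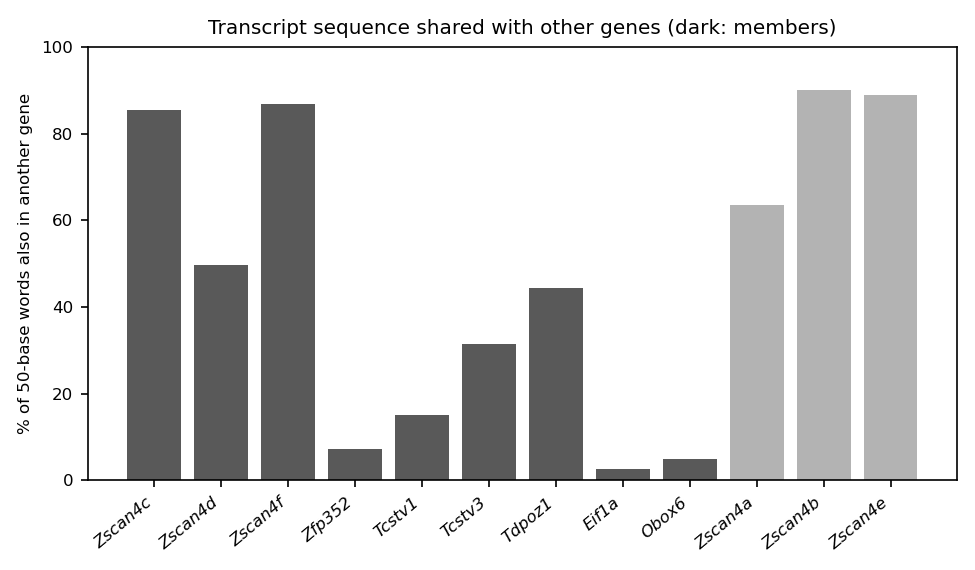
Share of each gene's 50-base words, taken from its annotated transcripts, that also occur in a transcript of another gene. Zscan4c and Zscan4f share 85.5% and 86.8% of their words, Zscan4d 49.6%, and Obox6 and Eif1a at most 5.0%.

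How far reads can be assigned to 1 gene differs between the members. Of the 50-base words in the annotated transcripts of Zscan4c, 85.5% also occurred in another gene, and the figure was 86.8% for Zscan4f and 49.6% for Zscan4d. The closest gene was the pseudogene Zscan4-ps2, with 71.4% of the words of Zscan4c and 77.1% of those of Zscan4f. Zscan4c shared 65.3% of its words with Zscan4f and 36.6% with Zscan4d. Tdpoz1, whose protein has a BTB/POZ domain, shared 44.4%, Tcstv3 31.4% and Tcstv1 15.0%. Zfp352 shared 7.1%, Obox6 5.0%, all of it with the pseudogene Obox6-ps1, and Eif1a 2.6%. The 3 Zscan4 members are therefore best read as 1 measurement with their sister rows, whereas Obox6 and Eif1a rest mostly on sequence of their own. These words come from the GENCODE M21 transcripts of build GRCm38, while the authors' build was mm9.

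Zscan4 RNA was present in both groups, and the wild-type libraries differed more from each other than the group means did. Zscan4c was at 0.507, 3.68 and 0.0902 FPKM across wild-type replicates 1 to 3 and 4.49, 2.06 and 1.41 FPKM in Q-KO replicates 1, 2 and 3. The groups overlapped, because wild-type replicate 2 lay above 2 of the 3 Q-KO libraries. The wild-type mean was 1.43 ± 1.96 FPKM and the Q-KO mean 2.65 ± 1.62 FPKM (SD, n = 3, as for every mean that follows), a log2 change of 0.80 (SE 0.54). Log2 changes subtract the wild-type mean of log2(FPKM + 1) from that of Q-KO, and they understate the change of low genes. In bulk RNA, more cells of a type and more RNA per cell cannot be told apart.

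Zscan4f, the most abundant copy, was at 0.517, 4.34 and 0.101 FPKM across the wild-type replicates and 5.6, 2.37 and 1.74 FPKM across the Q-KO replicates. Its log2 change was 0.92 (SE 0.58). Zscan4d was at 0.221, 1.85 and 0.0567 FPKM across the wild-type replicates and 3.19, 1.55 and 0.983 FPKM across the Q-KO replicates, with a log2 change of 0.84 (SE 0.42). For all 3 copies Q-KO replicate 1 was highest, wild-type replicate 2 second and wild-type replicate 3 lowest, the highest library being 49.8, 56.3 and 55.5 times the lowest for Zscan4c, Zscan4d and Zscan4f.

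A sum over the 6 Zscan4 rows depends less than a single row on how reads were split among the copies. It is not free of the split, because FPKM divides by lengths that differ between copies (longest transcripts 1745 bases for Zscan4e and 2276 bases for Zscan4c) and because reads can go to Zscan4-ps2, which is not summed. The sum was 2.12, 15.3 and 0.383 FPKM across wild-type replicates 1 to 3 and 21.7, 9.68 and 6.59 FPKM in Q-KO replicates 1, 2 and 3. Wild-type replicate 2 was 7.21 times wild-type replicate 1 and 39.9 times wild-type replicate 3, whereas the Q-KO mean was 2.14 times the wild-type mean (12.7 ± 7.97 against 5.92 ± 8.14 FPKM). The difference between the means, 6.73 FPKM, was 2.21 FPKM without Q-KO replicate 1 and 11.4 FPKM without wild-type replicate 2. It was 3.96 FPKM without wild-type replicate 3. The shares of the copies in the sum moved far less than its size. Zscan4f made up 24.4% to 28.5% of it, Zscan4c 20.7% to 24.1% and Zscan4d 10.4% to 16.0% across the 6 libraries.

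**Figure D2:**
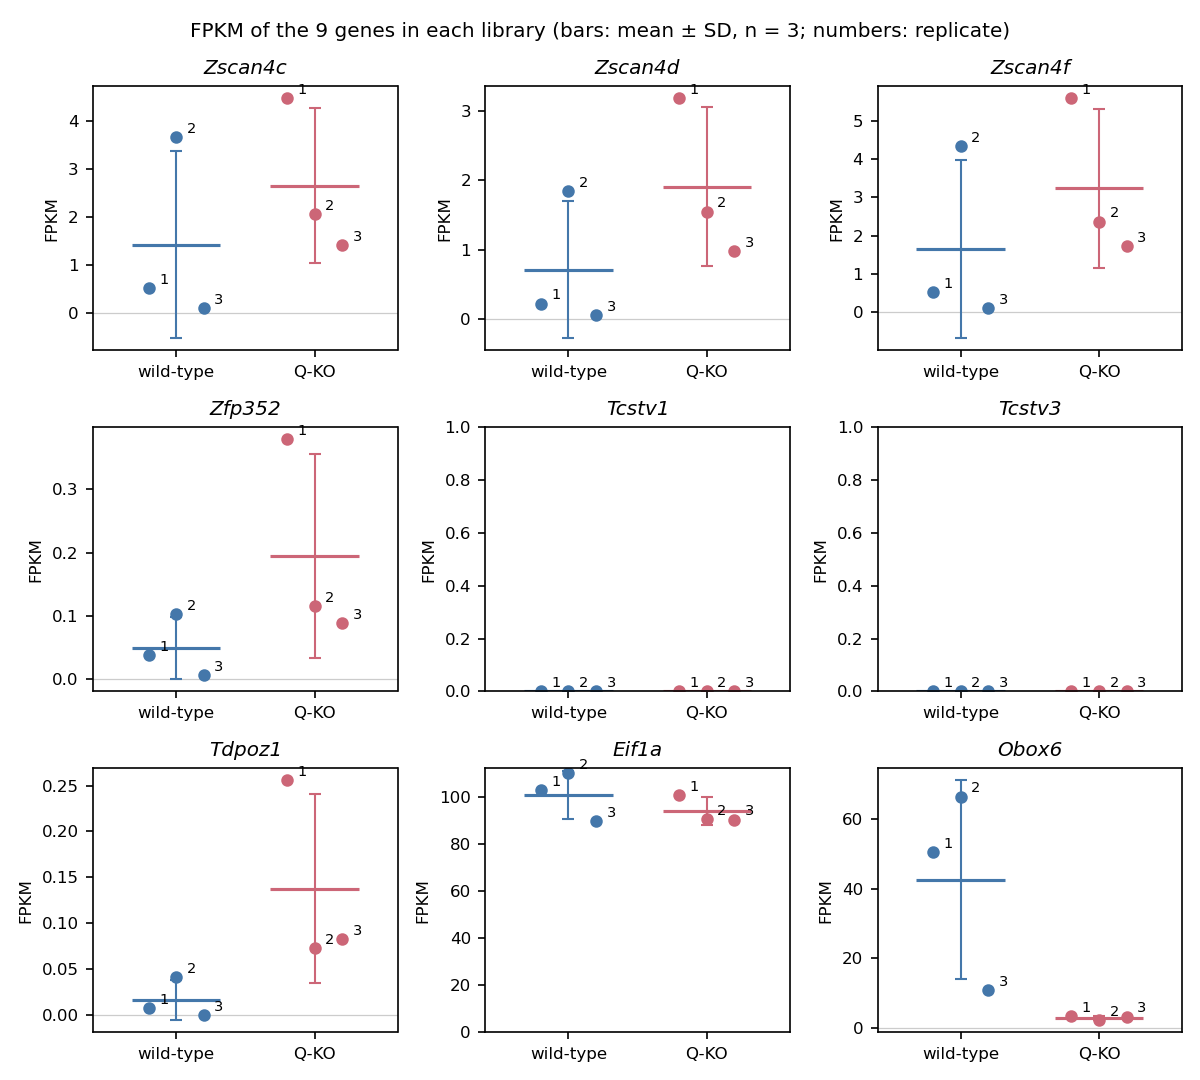
FPKM of each of the 9 genes in the 3 wild-type and 3 Q-KO libraries, with points numbered by replicate and bars for the mean ± SD. The Zscan4 genes, Zfp352 and Tdpoz1 are highest in Q-KO replicate 1, Eif1a lies between 89.9 and 110 FPKM throughout, and of the 5 genes that were tested Obox6 alone has separate groups.

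Zfp352 and Tdpoz1 were close to 0, and both were highest in Q-KO replicate 1 and lowest in wild-type replicate 3. Zfp352 was at 0.0374, 0.103 and 0.0056 FPKM across the wild-type replicates and 0.380, 0.115 and 0.0886 FPKM across the Q-KO replicates, so that wild-type replicate 2 lay above Q-KO replicate 3. Tdpoz1 was at 0.00814, 0.0419 and 0 FPKM across the wild-type replicates and 0.256, 0.0734 and 0.0833 FPKM across the Q-KO replicates, and its groups did not overlap. Both were below the mean of 1 FPKM that was required for a test. The same filter held back Tcstv1 and Tcstv3, 2-cell genes with close relatives on chromosome 13, which were listed at 0 in all 6 libraries. A listed 0 is not a measured absence in this table, since the elongation factor gene Eef1a1, which every cell uses, was also listed at 0 in the 3 wild-type libraries. In the Q-KO replicates Eef1a1 was listed at 5333, 5550 and 5903 FPKM, so that its listed 0 followed the group. Whether the values of other genes, members included, differ between the groups for the same reason was not tested.

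Eif1a, a translation initiation factor whose duplicated relatives belong to the 2-cell programme, did not follow the Zscan4 genes. It was at 103, 110 and 89.9 FPKM across the wild-type replicates and 101, 90.6 and 90.4 FPKM across the Q-KO replicates. The groups overlapped, the highest library was 1.22 times the lowest, and the log2 change was -0.10 (SE 0.13). Its X-linked counterpart Eif1ax was at 161 ± 8.78 and 175 ± 10.5 FPKM. The sum over 7 of the duplicated relatives was 7.34, 18.1 and 4.80 FPKM across wild-type replicates 1 to 3 and 23.5, 10 and 7.47 FPKM across the Q-KO replicates, which is the order of libraries seen for Zscan4. Across the 6 libraries, Pearson's r of Eif1a with Zscan4c was 0.50, against 0.98 for Zscan4c with Zscan4d, whose rows share reads.

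Obox6 had the largest log2 change in size among the members, and it was lower in the Q-KO libraries. It was at 50.5, 66.5 and 10.9 FPKM across wild-type replicates 1 to 3 and 3.30, 2.14 and 3.24 FPKM in Q-KO replicates 1, 2 and 3. The groups did not overlap, although wild-type replicate 3 lay far below the other wild-type libraries. The lowest wild-type value was 3.31 times the highest Q-KO value. Wild-type replicates 1 and 2 were also the libraries in which the Y-linked genes examined were listed at 0. Wild-type replicate 3 had these Y-linked genes above 0, as the Q-KO libraries did. Whether this difference among the wild-type libraries bears on Obox6 was not tested. The wild-type mean of 42.6 ± 28.6 FPKM was 14.7 times the Q-KO mean of 2.89 ± 0.66 FPKM, with a log2 change of -3.17 (SE 0.57). Of the 11573 genes tested, Obox6 had the 2nd most negative log2 change. That rank is a description only, because the members were selected on this contrast. Obox6 was above 2 FPKM in every library and thus measurable in both groups.

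Of the 9 members 5 passed the filter, namely Zscan4c, Zscan4d, Zscan4f, Eif1a and Obox6. In limma's fit over all genes tested, 4.06% had an adjusted p under 0.05 (3.04%, 352 genes, higher and 1.02%, 118 genes, lower), and 1 member, Obox6, was among the lower. With median-of-ratios scaling, 233 genes were higher and 185 lower, and with quantile normalization 249 and 188. Nothing is read from the call of Obox6, because the members were selected on this contrast. It was absent from the calls without wild-type replicate 1, without wild-type replicate 2, without any of the 3 Q-KO replicates, with no filter and in a robust fit. Groups did not overlap for 1 of the 5 tested members, Obox6 (lower), and for 27.7% of all genes tested (9.44% lower and 18.2% higher). Of the 7 members above 0, groups did not overlap for 2 (28.6%), Obox6 and Tdpoz1 (higher, not tested). The share was 25.5% of all genes above 0, so the members are near the background.

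**Figure D3:**
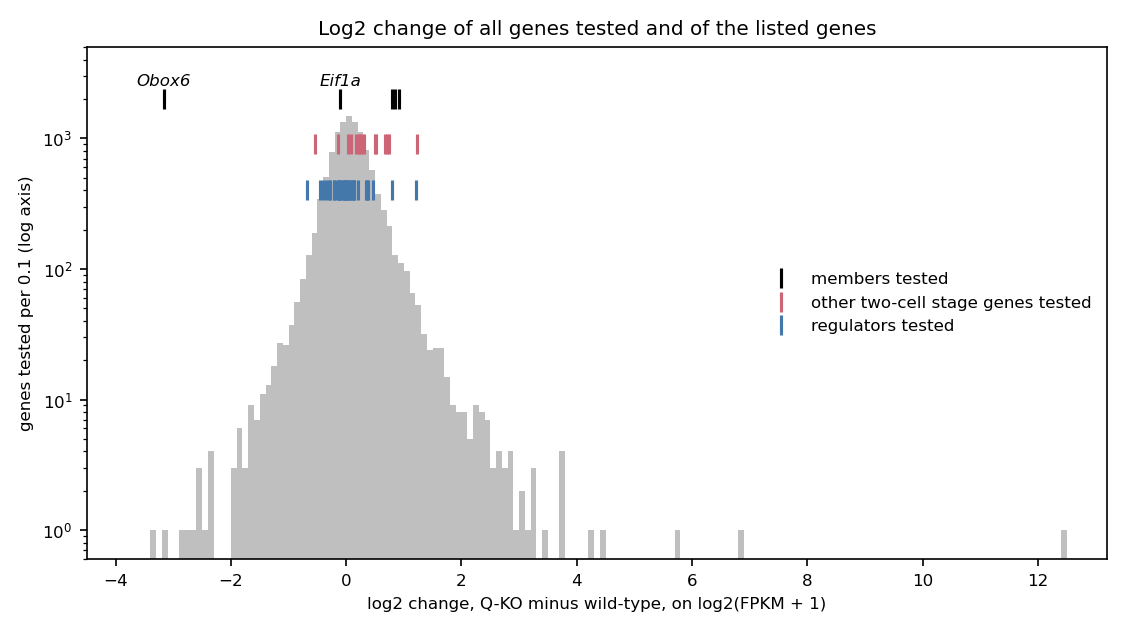
Histogram of the log2 change of all genes tested (grey, log axis of counts), with ticks for the 5 members, 15 other 2-cell genes and 33 regulators that were tested. Obox6 lies at -3.17, the 3 Zscan4 members lie between 0.80 and 0.92, and the medians of the other 2-cell genes and the regulators are 0.28 and -0.02.

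The order of the libraries seen for Zscan4 recurred across a wider list of 2-cell genes. Of the 46 other genes listed, 38 were in the table and 37 were above 0 in some library. Q-KO replicate 1 was the highest library for 33 of these 37, against 17.5% of all genes above 0, and wild-type replicate 3 was the lowest for 30, against 33.5% of all genes. Wild-type replicate 2 was the highest wild-type library for 34 of 37, against 38.4%. It lay above both Q-KO replicates 2 and 3 for 32 of 37, against 29.7%. The 4 genes that were not highest in Q-KO replicate 1, named after their values were seen, were Gm428, Cml2, Pif1 and Calcoco2. Many of these rows share reads, so they are not independent. Of the 11 genes with under 25% of their words in other genes, Q-KO replicate 1 was highest for 9, wild-type replicate 3 lowest for 7 and wild-type replicate 2 the highest wild-type library for 8. Of the 24 that share more, these counts were 23, 22 and 24. Gm4340, among the 24, was at 0.000379 FPKM or less in every library. Dux and Cml2 are in neither set, because GENCODE held no transcript of that name.

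Genes of other families are given here beside Zscan4, chosen with their values in view. Dux, the gene of the activator itself, was at 0.0211, 0.209 and 0 FPKM across the wild-type replicates and 0.256, 0.124 and 0.0688 FPKM across the Q-KO replicates. The 5 Usp17l rows, which encode deubiquitinases, summed to 0.392, 2.34 and 0.0826 FPKM in the wild-type replicates and to 5.32, 1.83 and 1.17 FPKM across the Q-KO replicates. Tmem92, a membrane protein gene with 1.9% of its words in other genes, was at 0.0958, 0.687 and 0.0696 FPKM and at 1.09, 0.541 and 0.390 FPKM. In these 3 the groups overlapped, since wild-type replicate 2 lay above Q-KO replicates 2 and 3. The Tdpoz rows differed among themselves. Their sum of 4 rows was 0.0293, 0.482 and 0.0129 FPKM in wild-type and 1.43, 0.397 and 0.371 FPKM in Q-KO libraries, and Tdpoz3 made up 0.307 FPKM of the sum in wild-type replicate 2. Tdpoz2, at 0.0337 FPKM there against 0.0728 to 0.211 FPKM in Q-KO libraries, did not overlap between the groups, as Tdpoz1 did not. Of the 37 other 2-cell genes above 0, groups did not overlap for 2 (5.41%), against 25.5% of all genes above 0. These were Tdpoz2 and Pif1, and Pif1 was lower in the Q-KO libraries. Dux, Usp17lb, Tmem92 and Arg2 correlated with the summed Zscan4 level at r of 0.94, 0.90, 0.96 and 0.89 over the 6 libraries. The value was 0.79 for Zfp352, 0.74 for Tdpoz1 and 0.68 for Gm428. Dazl and Stra8, which are not on the 2-cell list, were at 0.85 and 0.80, so high values were not particular to that list. Each r is a description over 6 libraries that share a medium and differ in depth, and no cause was tested.

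**Figure D4:**
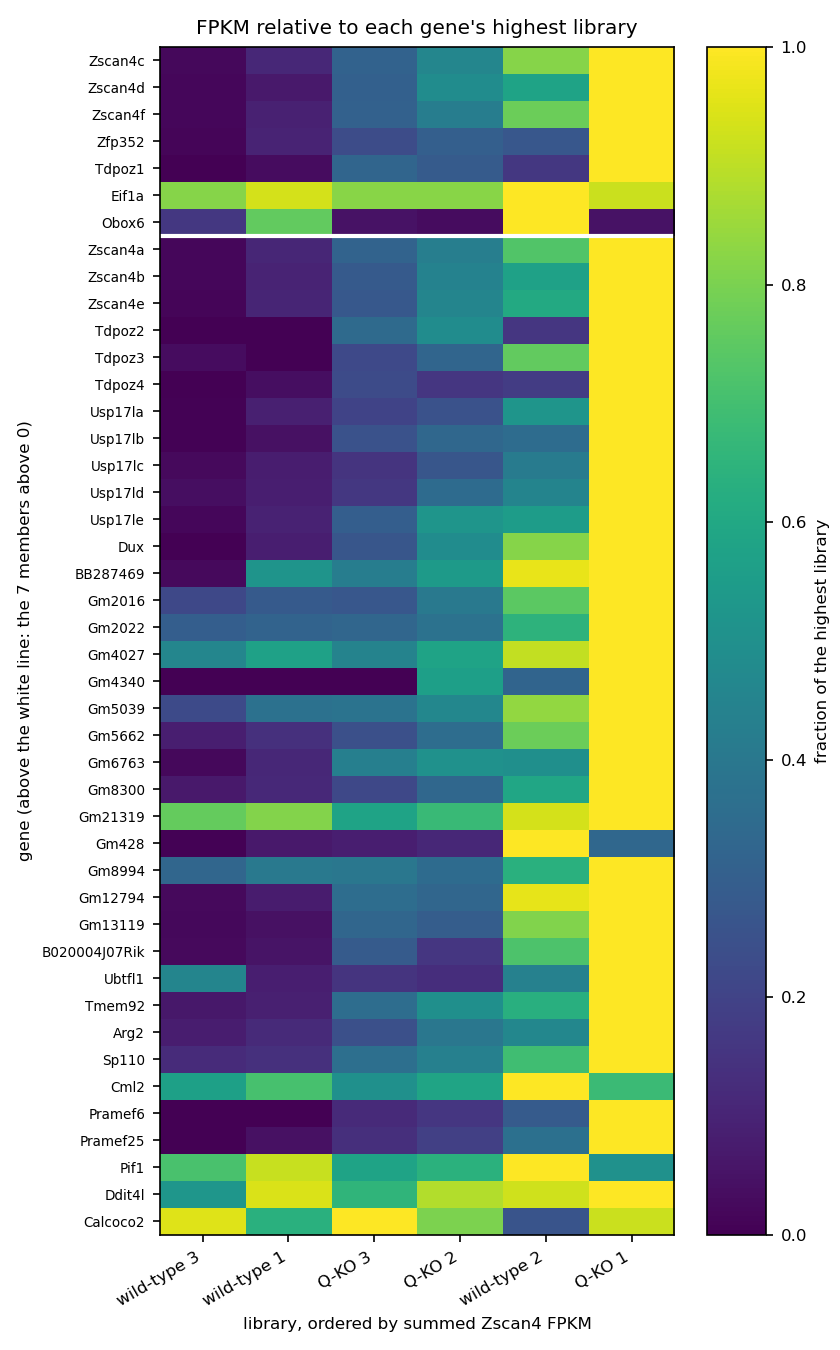
FPKM of the 7 members above 0 (top) and of 37 other 2-cell genes, each as a fraction of its highest library, with libraries ordered by the summed Zscan4 level. The column of Q-KO replicate 1 is brightest for 33 of the 37, and the place of each column is set by the Zscan4 sum.

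The genotype comparison of this list gave no calls. The Q-KO mean was higher for 33 of the 37 genes above 0, against 61.4% of all genes above 0, and this count was 22 without Q-KO replicate 1 and 30 to 34 without any other library. Of the 15 that were tested, 0 passed limma's test and 2 had an unadjusted p under 0.05, beside 4.06% and 2493 of the 11573 genes tested, so that the list does not exceed the background. The list had 13 log2 changes above 0, beside 6861 of the 11573 genes tested, and a median of 0.28, against 0.07 for all genes tested. That median was -0.02 without Q-KO replicate 1 and 0.50 without wild-type replicate 2. The 2 genes with an unadjusted p under 0.05, named after their values were seen, were Gm6763 (log2 change 1.22, limma adjusted p = 0.169) and Pif1. Gm6763 passed without wild-type replicate 2 (limma adjusted p = 0.0426), and all of its 50-base words occur in another gene. The 4 most abundant listed genes were mixed: Ddit4l and Gm21319 were highest in Q-KO replicate 1, like most of the list, and Calcoco2 and Pif1 were not. The autophagy receptor gene Calcoco2 was at 84.8 ± 47.8 and 125 ± 13.4 FPKM in wild-type and Q-KO libraries, the helicase gene Pif1 at 11.3 ± 1.90 and 7.42 ± 0.87 FPKM (limma adjusted p = 0.122), Ddit4l at 4.16 ± 1.23 and 4.41 ± 0.91 FPKM, and Gm21319 at 3.17 ± 0.34 and 2.84 ± 0.83 FPKM. The 9 fibroblast genes that were highest in Q-KO replicate 1 moved with the 2-cell genes in that library, whereas wild-type replicate 2, second for Zscan4, was at 0.579 FPKM for their sum. Their part in the level of Q-KO replicate 1 was not tested. No fibroblast gene of the list was at 0 in all libraries, and Dcn and Fap were at 0 in the 3 wild-type libraries.

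Among regulators of the 2-cell programme, 1 of 33 passed the test in the higher direction, beside 3.04% of all genes tested, which is no result about the regulators as a list. The T-box gene Tbx3 rose from 28.4 ± 4.77 to 49.3 ± 3.60 FPKM (log2 change 0.79, SE 0.16, limma adjusted p = 0.0346). Its call was lost when any library other than wild-type replicate 3 was left out (limma adjusted p 0.052 to 0.189), with no filter (adjusted p = 0.0566), with median-of-ratios scaling (adjusted p = 0.0713) and with the replicate number as a block (adjusted p = 0.0694). With no filter the 1 regulator called was instead Max, the partner of MYC (log2 change 0.47, limma adjusted p = 0.0423). The median of the 33 was -0.02, with 16 above 0 and 17 below. The most abundant were the corepressor gene Trim28 (330 ± 78.1 and 347 ± 25.7 FPKM), the nucleolin gene Ncl, Sumo2 and the deacetylase gene Hdac1, and 0 of these 4 passed limma's test, as 0 had an unadjusted p under 0.05. Dppa2, an activator of Dux picked with its values in view, stood at 29.9, 71.5 and 10.3 FPKM across wild-type replicates 1 to 3 and 72.3, 62.5 and 65.9 FPKM across the Q-KO replicates. Wild-type replicate 2 lay among the Q-KO libraries and the other wild-type replicates below them, and the log2 change was 1.21 (SE 0.56, limma adjusted p = 0.257).

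Obox6 was the sole abundant Obox row. Obox1, Obox2, Obox3 and Obox5 were at 0 to 0.0338 FPKM in every library. Crxos, a homeobox gene that is expressed in ES cells and follows Crx and Obox6 on chromosome 7, was at 136, 226 and 218 FPKM across the wild-type replicates and 84.9, 73.7 and 169 FPKM across the Q-KO replicates. Its groups overlapped through Q-KO replicate 3, and its log2 change of -0.88 (SE 0.33) did not pass limma's test (adjusted p = 0.173). Of 11 other oocyte homeobox genes listed, 5 were in the table and Crxos was the 1 tested, so that 0 were called and 1 had an unadjusted p under 0.05. Crx, between them, was at 0.00788 to 0.132 FPKM. On the other side of Crxos, the nearest gene that was tested other than a snoRNA was Napa, at 26.6 ± 4.19 and 33.3 ± 0.64 FPKM (limma adjusted p = 0.237). Wild-type replicate 3, low for Obox6, was not low for Crxos.

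**Figure D5:**
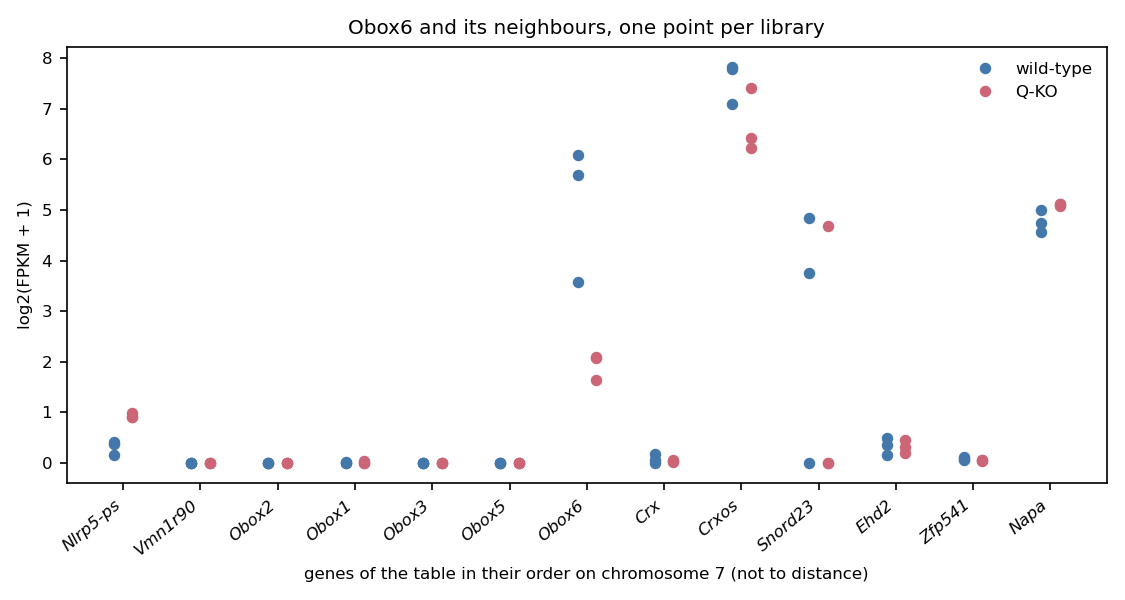
log2(FPKM + 1) of Obox6 and of the 6 rows on either side of it on chromosome 7, in gene order and not to distance, with a point for each of the 3 wild-type and 3 Q-KO libraries. Obox6 is the only gene of this stretch with a mean of at least 1 FPKM whose wild-type points lie wholly above the Q-KO points.

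The genes whose levels tracked the members most closely were sought among 10848 tested genes, by Pearson's r of log2(FPKM + 1) over the 6 libraries. For Zscan4c, Zscan4d and Zscan4f the closest were Zscan4a and Zscan4e (r of 0.988 to 0.998), followed by Pdss1, an enzyme gene of ubiquinone synthesis (0.986 and 0.988 for Zscan4c and Zscan4f), and Nlrp4c (0.981 for Zscan4d). Nlrp4c was at 0.884, 2.20 and 0.735 FPKM across the wild-type replicates and 2.47, 1.97 and 1.30 FPKM across the Q-KO replicates. For Obox6 the closest were the zinc finger genes Zfp472 (0.994) and Zfp273 (0.992) and the kinetochore gene Ndc80 (0.991). Zfp273 was at 5.20, 5.47 and 2.86 FPKM across the wild-type replicates and 1.99, 2 and 1.88 FPKM across the Q-KO replicates, so that it too was lower in wild-type replicate 3 than in the other wild-type libraries. For Eif1a they were Hmgb3 (0.984), Zfp946 (0.979) and the nucleosome assembly gene Nap1l1 (0.972). With 6 points and this many candidates, such values are a ranking and no more. Obox6 itself correlated with Zscan4c at -0.16 and with Eif1a at 0.74.

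Oocyte and maternal markers were mostly low. Of 15 oocyte and maternal genes, 12 had a mean below 1 FPKM and Oosp1 was listed at 0 throughout. The abundant ones were Ooep, a maternal gene also expressed in ES cells (wild-type replicates 133, 189 and 76.3 FPKM, Q-KO replicates 135, 172 and 265 FPKM), the zona pellucida gene Zp3 (7.58 ± 1.19 and 7.80 ± 1.77 FPKM) and Npm2. Q-KO replicate 1 was the highest library for 3 of the 14 above 0. Of the 3 that were tested, 0 passed limma's test and 0 had an unadjusted p under 0.05.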

How the data were processed

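RNA-seq was done on 3 wild-type and 3 Q-KO libraries. The authors deposited FPKM values, 1 per gene symbol and library, and 1 stray header row was dropped. CASAVA, bcl2fastq 2.16, STAR 2.5, Cufflinks and build mm9 are named, without role or order, per the submitters' processing notes. The annotation, the strand setting and the depth were not given in the sources used here. Here log2(FPKM + 1) of the 11573 genes whose mean reached 1 FPKM was fitted with limma 3.58.1 in R 4.3.3 (intensity trend, two-sided, Benjamini-Hochberg adjustment, threshold 0.05), after a test on simulated data. A gene high in a single group can pass that filter. Members and lists were chosen with earlier results of these data known. The text names all members, up to 6 called and the 4 most abundant genes of each other list, the 3 genes most like each tested member (without predicted, clone-named and small RNA genes), and the 3 most abundant of each marker list. Promoters came from RefSeq (GRCm38.p6, 5 of 9 members matched) and 50-base words from GENCODE M21 transcripts. Alternatives changed the pseudocount, filter, scaling, variance model, replicate block and libraries.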

Additional observations from a re-analysis of the deposited data

How the results depend on the processing

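The 470 genes past the threshold became 266 with a mean of at least 5 FPKM and 28 to 566 when single libraries were left out (94 when wild-type replicate 1 was dropped, and 187, 28 and 85 when Q-KO replicates 1, 2 and 3 were), with fewer genes or samples in each of these fits. The count among other 2-cell genes was 0 to 1 over those leave-one-out fits, the 1 being without wild-type replicate 2, and 0 under every other alternative run. The count among regulators, 1, was 0 to 1 in the leave-one-out fits, 0 with median-of-ratios scaling and 0 with the replicate number as a block, and with no filter it was 1 but the gene was Max, not Tbx3. That block gave 333 genes, and same-numbered libraries did not deviate together (r of deviations -0.03, 0.01 and 0.02), so it was not used. The causes were not tested. Median-of-ratios scaling moved the median of all genes from 0.07 to -0.04. Over the alternatives the log2 change of Obox6 was -3.93 to -2.68, of Zscan4c 0.37 to 1.70, of Zscan4d 0.54 to 1.97, of Zscan4f 0.47 to 1.85 and of Eif1a -0.23 to -0.03. The summed Zscan4 difference was 2.21 to 11.4 FPKM without single libraries and 6.04 FPKM with median-of-ratios scaling. Depth limits Zfp352 and Tdpoz1, whose values are near 0, and no counting interval can be given without fragment counts.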
